A study of Rattus norvegicus with 12 samples.

Results

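Ubiquitin-conjugating enzymes and ubiquitin-specific proteases were followed in cultured rat hippocampal neurons in which action potentials were blocked and then released. The set held every gene in the deposited table whose symbol starts with Ube2 or is Usp followed by digits and at most 1 letter, with Usp18 not used here. This gave 69 of the 10729 genes kept, of which 29 were Ube2 genes and 40 were Usp genes, and all 69 passed the filter on low values. Membership was set by gene names alone, but the set was chosen with earlier results of these data known.

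Ubiquitin is attached to proteins by a relay in which an activating enzyme (E1) loads it onto a conjugating enzyme (E2), and a ligase (E3) directs the E2 to a substrate. The type of chain built depends largely on the E2, and it can mark a protein for the proteasome, for endocytosis or for signalling, while deubiquitinases, of which the USP enzymes are the largest family, remove the mark. In neurons this system sets the turnover of receptors and scaffold proteins at synapses and is known to be engaged when activity changes.

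Polyadenylated RNA was measured in 12 libraries, 3 in each of 4 groups, from neuron-enriched cultures of CD (Sprague Dawley) rat embryos of both sexes at stage E18.5. All cultures were infected with lentivirus on day 1 in vitro, received 1 µM tetrodotoxin (TTX), a blocker of voltage-gated sodium channels, on day 5 and were harvested on day 7. The virus carried an shRNA against Grin3a, which encodes the NMDA receptor subunit GluN3A, in the KD groups, or was the empty pLKO.1 vector in the Ctrl groups. A single hairpin was used, and the vector without a hairpin leaves effects of hairpin expression itself uncontrolled. KD_TTXwd and Ctrl_TTXwd had 48 h of TTX followed by 6 h of withdrawal, whereas KD_TTX and Ctrl_TTX had 48 h of TTX. Levels are the authors' FPKM (fragment counts scaled for transcript length and library size), which are per length and so can be compared between genes. Read numbers are unknown for every value. Nothing in the labels says that the 3 libraries of a group came from separate cultures, so the tests cover only the spread among the libraries at hand.

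Grin3a, the gene targeted, had 5.22, 3.32 and 2.50 FPKM in KD_TTXwd against 13.8, 19.8 and 4.88 FPKM in Ctrl_TTXwd. In TTX it had 9.30, 6.01 and 4.77 FPKM in KD_TTX against 18.6, 18.2 and 23.0 FPKM in Ctrl_TTX. The library labelled Ctrl_TTXwd replicate 3 therefore lay within the knockdown range. It also had the highest summed level of 8 microglia markers (1517 FPKM, against 35.4 to 603 FPKM in the other libraries) and the lowest of 7 neuron markers (885 FPKM, against 1888 to 3763 FPKM). Ctrl_TTX replicate 1 had a mean correlation of 0.909 with the other libraries of its group over log2 levels, and Ctrl_TTXwd replicate 3 one of 0.910, while the other 10 libraries reached 0.928 to 0.978. Ctrl_TTX replicate 1 was the library with the highest value for 28 of the 69 genes, and it was the 1 library in which no gene of the table was under 1.00 FPKM (minima of 0 to 0.0436 FPKM in the others). Key counts below are also given without these 2 libraries, an alternative chosen after seeing the data.

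All 69 genes had a mean of at least 1 FPKM in each group. Their means over the 12 libraries ran from 1.47 FPKM for Usp51 to 341 FPKM for Usp22, with a median of 57.3 FPKM for the Ube2 genes and 20.9 FPKM for the Usp genes. Usp51 never exceeded 2.97 FPKM and Usp22 never fell under 139 FPKM. Usp22, the deubiquitinase of the SAGA chromatin complex, was followed by Ube2d3 at 211 FPKM and Ube2d2 at 196 FPKM, near-identical general-purpose E2s that may share reads. Usp14, which trims ubiquitin at the proteasome, averaged 141 FPKM. Ube2n, the E2 of K63-linked chains, averaged 129.6 FPKM, and Ube2s, which extends K11-linked chains for the anaphase-promoting complex, 119 FPKM. The ranges of these 5 genes below Usp22 overlapped (93.9 to 180.3 FPKM for Usp14, for example, against 67.1 to 179 FPKM for Ube2s). That of Usp22, 139 to 479 FPKM, overlapped them too, and Ube2d3 was above it in Ctrl_TTX replicate 1 (444 against 297 FPKM). The ranges therefore do not set the full order. Within libraries, Ube2d3 and Ube2d2 were each above Usp14 and Ube2n in all 12. The locus listed for Ube2n spans 1.115 kb on chromosome 1, whereas RefSeq places the gene on chromosome 7, so which copy the value measures is uncertain.

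**Figure D1:**
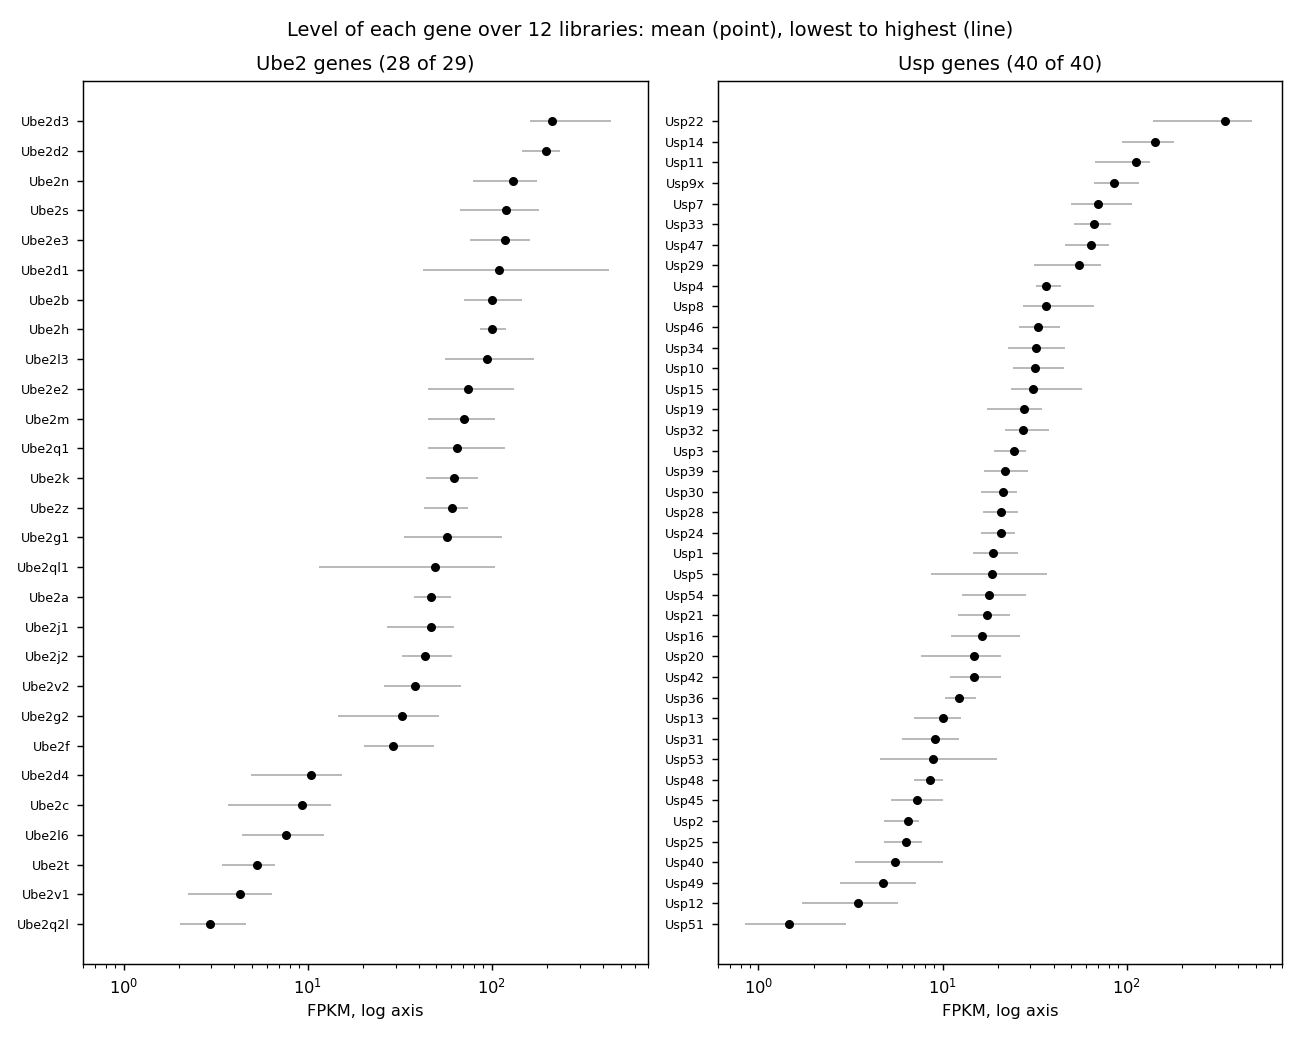
Mean FPKM over 12 libraries (points) with the lowest and highest library (lines) for 28 of the 29 Ube2 genes (left) and the 40 Usp genes (right), on a log axis. Usp22 is at the top and Usp51 at the bottom, and Ube2d1 and Ube2ql1 have the widest lines among the genes above 40 FPKM.

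Promoter sequences are given for the genes with the smallest p in the comparisons that follow, Ube2ql1 for withdrawal in control, Ube2b for withdrawal with knockdown and Ube2j1 for both knockdown comparisons. They come from RefSeq (build GRCr8) and run 5′ to 3′ over 300 bases around the annotated start of the gene. Capitals mark matches on either strand to TGACG, the core of the cAMP response element bound by the activity-regulated factor CREB, and to GGGCGG, the GC box bound by SP1 family factors. The reverse complements appear as CGTCA and CCGCCC.
Ube2ql1 (chr1:35377014-35377313, plus strand): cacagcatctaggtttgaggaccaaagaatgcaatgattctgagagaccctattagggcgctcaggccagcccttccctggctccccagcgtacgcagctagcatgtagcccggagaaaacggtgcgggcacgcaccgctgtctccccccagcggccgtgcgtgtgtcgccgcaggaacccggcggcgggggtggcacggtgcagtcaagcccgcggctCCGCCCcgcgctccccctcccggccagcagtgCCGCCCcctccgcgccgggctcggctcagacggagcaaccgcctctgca
Ube2b (chr10:36763894-36764193, minus strand): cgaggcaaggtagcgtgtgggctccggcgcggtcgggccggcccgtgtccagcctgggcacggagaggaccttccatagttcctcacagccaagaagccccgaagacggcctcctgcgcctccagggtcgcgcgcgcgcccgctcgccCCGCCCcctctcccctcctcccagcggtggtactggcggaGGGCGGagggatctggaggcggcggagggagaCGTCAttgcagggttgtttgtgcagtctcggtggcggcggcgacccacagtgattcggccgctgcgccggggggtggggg
Ube2j1 (chr5:52218557-52218856, plus strand): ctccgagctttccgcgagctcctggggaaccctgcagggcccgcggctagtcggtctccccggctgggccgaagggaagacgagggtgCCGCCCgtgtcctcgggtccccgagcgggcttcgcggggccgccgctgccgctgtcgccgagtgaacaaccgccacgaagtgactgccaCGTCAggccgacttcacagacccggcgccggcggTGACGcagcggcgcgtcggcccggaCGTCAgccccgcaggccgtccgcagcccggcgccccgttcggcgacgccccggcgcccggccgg
Ube2j1 held 3 matches to TGACG and 1 GC box, Ube2b 1 match to TGACG and 2 GC boxes, and Ube2ql1 no TGACG and 2 GC boxes. RefSeq promoters were matched for 60 of the 69 genes. TGACG was found in 43.3% of these 60 windows and in 21.2% of all 33469, and GGGCGG in 71.7% and 33.1%. Sites for NRF1 (15% against 4.25%) and ETS factors (26.7% against 8.75%) were more frequent too. Those for AP-1 (1.67% against 7.33%) and the CCAAT box (28.3% against 37.5%) were less frequent. The windows of all genes were not matched for base content or expression, so these shares show nothing particular to the family. The full element TGACGTCA was found in 0 of the 60 and in 1.83% of all. Motifs and genes shown were chosen with values known, 7 motifs were searched, and a match is a stretch of letters and not a bound site.

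The response of control neurons to TTX withdrawal was the comparison of Ctrl_TTXwd with Ctrl_TTX. Among the 69 genes, 9 fell and 0 rose (limma, Benjamini-Hochberg adjusted p below 0.05 over 10689 genes). That is 13% of them, against 17.7% of all genes tested (6.61% higher and 11.1% lower), so calls were no more frequent than in the table as a whole. Their median log2 difference was -0.27, against -0.01 over all genes, and 50 of 69 were below 0, against 5435 of all 10689. At an unadjusted p below 0.05 there were 3 higher and 22 lower, against 34.5% of all genes (1556 higher and 2132 lower). Of the E2s, the genes that fell were Ube2ql1, Ube2g1, Ube2e2 and Ube2q1, and of the deubiquitinases Usp42, Usp31, Usp34, Usp7 and Usp13.

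The largest fall was that of Ube2ql1 (chromosome 1, 37582311 to 37622672; rn5), an E2 known from human cells for ubiquitylation at damaged lysosomes. Its level was 29.6, 31.1 and 11.5 FPKM in Ctrl_TTXwd, against 104, 64.4 and 72.0 FPKM in Ctrl_TTX. Every library after withdrawal lay below every library in TTX, and the difference in mean log2(FPKM + 1) was -1.78 ± 0.33 (SE, limma adjusted p = 0.00756). Its relative Ube2q1 (chromosome 2, 208528889 to 208537961), a large E2 with a long N-terminal part, had 45.2, 52.6 and 54.2 FPKM in Ctrl_TTXwd and 119, 74.1 and 70.8 FPKM in Ctrl_TTX. The groups did not overlap, with the highest value in Ctrl_TTX replicate 1, and the log2 difference was -0.74 ± 0.19 (limma adjusted p = 0.0219).

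Ube2g1 (chromosome 10, 58911568 to 58992368), which builds K48-linked chains of the kind recognised by the proteasome, had 33.5, 41.8 and 45.2 FPKM in Ctrl_TTXwd and 114, 66.7 and 71.4 FPKM in Ctrl_TTX. Its groups were apart, and the log2 difference was -1.02 ± 0.21 (limma adjusted p = 0.0105). Ube2e2 (chromosome 15, 11469667 to 11995295), an E2 with an N-terminal extension that works with many ligases, had 50.4, 56.5 and 45.2 FPKM in Ctrl_TTXwd and 132, 82.8 and 90.0 FPKM in Ctrl_TTX. These groups too did not overlap, at a log2 difference of -0.96 ± 0.20 (limma adjusted p = 0.0117). Mean levels after withdrawal were 30.1% of those in TTX for Ube2ql1, 47.8% for Ube2g1, 49.9% for Ube2e2 and 57.7% for Ube2q1.

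The deubiquitinases that fell had smaller differences. Usp42 (chromosome 12, 14904018 to 14953443), known in human cells for removing ubiquitin from p53, had 10.9, 11.1 and 11.0 FPKM in Ctrl_TTXwd and 20.9, 16.6 and 17.0 FPKM in Ctrl_TTX. The 3 libraries after withdrawal were nearly equal and all below those in TTX (log2 difference -0.67 ± 0.13, limma adjusted p = 0.00910). Usp31 (chromosome 1, 198532742 to 198568863) had 6.04, 6.60 and 6.22 FPKM in Ctrl_TTXwd and 8.92, 12.2 and 12.0 FPKM in Ctrl_TTX. For Usp31, unlike most, Ctrl_TTX replicate 1 was the lowest library of its group, yet it was above every Ctrl_TTXwd library (log2 difference -0.71 ± 0.17, limma adjusted p = 0.0178). Usp34 (chromosome 14, 104954069 to 105109823), a very large enzyme known for stabilising axin in Wnt signalling, had 22.6, 24.0 and 27.0 FPKM in Ctrl_TTXwd and 46.4, 35.4 and 35.7 FPKM in Ctrl_TTX (log2 difference -0.64 ± 0.16, limma adjusted p = 0.0196).

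Usp7 (chromosome 10, 5776624 to 5821051), which acts on MDM2 and p53 and on chromatin regulators, had 49.6, 55.7 and 65.4 FPKM in Ctrl_TTXwd and 106, 76.3 and 76.7 FPKM in Ctrl_TTX. Usp13 (chromosome 2, 138848098 to 138965318), which stabilises the autophagy protein Beclin 1, had 7.90, 8.87 and 8.41 FPKM in Ctrl_TTXwd and 11.6, 12.1 and 12.6 FPKM in Ctrl_TTX. Neither pair of groups overlapped, and the log2 differences were -0.59 ± 0.16 for Usp7 and -0.48 ± 0.15 for Usp13 (limma adjusted p = 0.0312 and 0.0488). Usp13 was closest to the threshold, and its adjusted p ran over 0.0438 to 0.288 under the alternatives. The listed loci of Usp34 and Usp42 overlap those of Ahsa2 and Cyth3 on the opposite strand; the library kit keeps strand, but the sources used here do not say whether the counting used it.

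**Figure D2:**
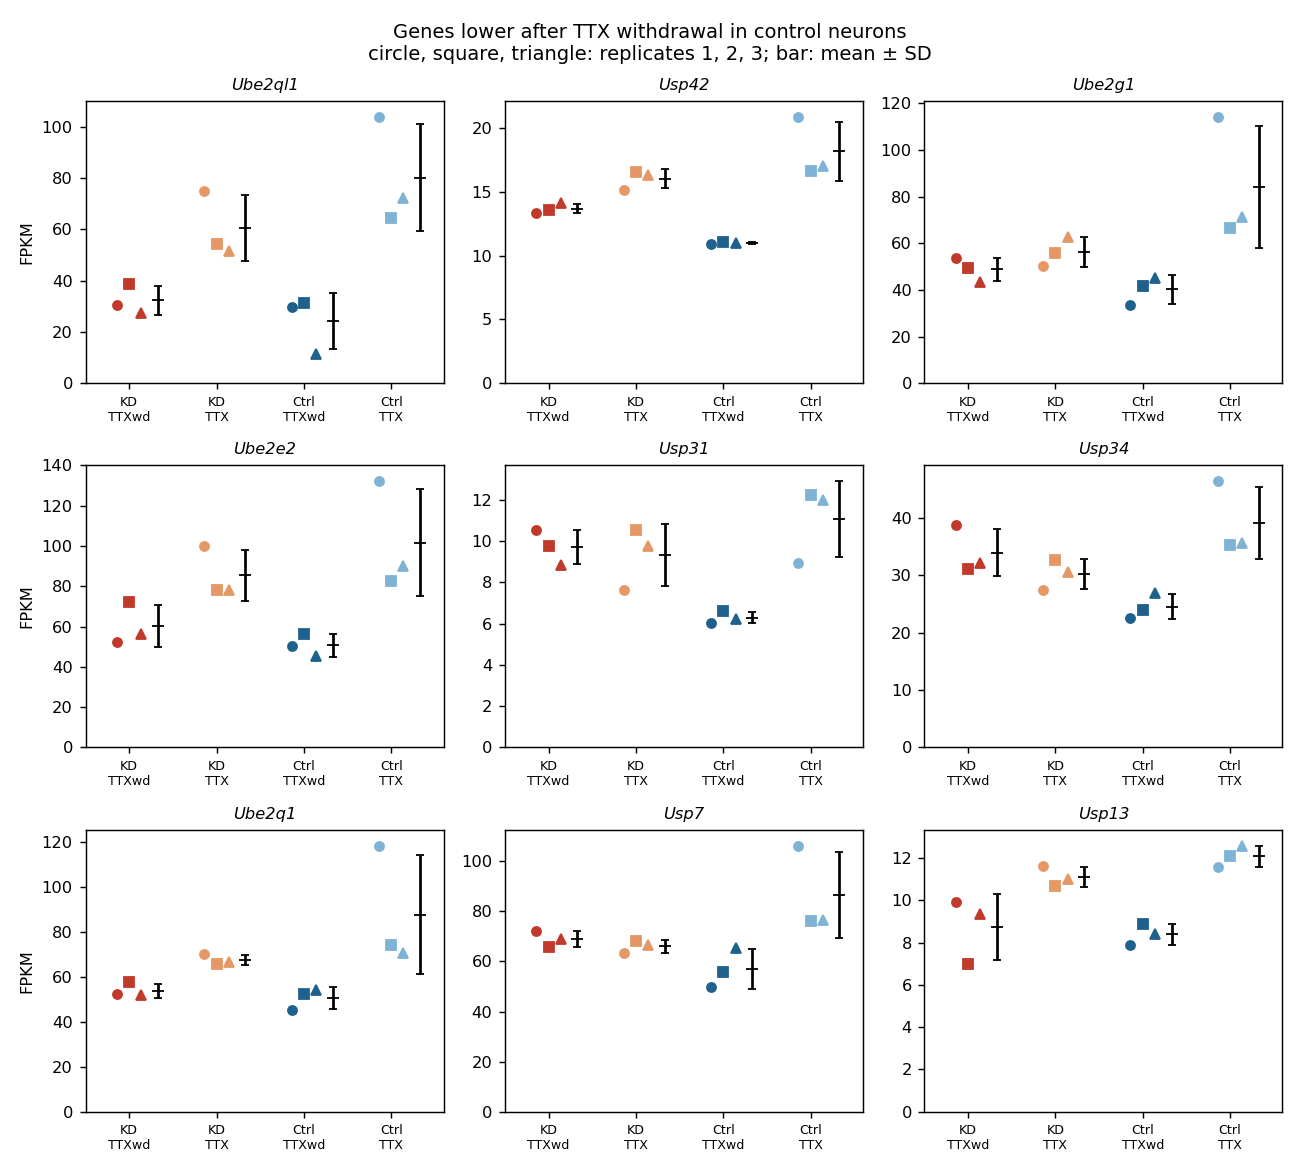
FPKM of the 9 genes that fell after withdrawal in control neurons, in the 3 libraries of each group (circle, square and triangle are replicates 1, 2 and 3), with the mean ± SD beside them. In each panel all 3 Ctrl_TTXwd points lie below all 3 Ctrl_TTX points, and for Ube2g1 the Ctrl_TTX mean is raised by replicate 1 at 114 FPKM.

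Other members of the E2 classes showed large differences with wide errors. Ube2d1, a general-purpose E2, had 58.9, 85.4 and 42.0 FPKM in Ctrl_TTXwd and 430.2, 90.7 and 95.3 FPKM in Ctrl_TTX. Replicate 1 of Ctrl_TTX was far above the other two, and the log2 difference of -1.36 ± 0.49 did not pass (limma adjusted p = 0.0747). The authors' deposited table does call it, with a log2 fold change of -1.73 and q = 0.00102. Among members measured for other modifiers, Ube2f, an E2 of NEDD8, had 28.2, 28.3 and 48.7 FPKM in Ctrl_TTXwd against 21.2, 25.7 and 25.5 FPKM in Ctrl_TTX (limma adjusted p = 0.134). Ube2n had 141, 173 and 175 FPKM in Ctrl_TTXwd and 109, 99.5 and 116 FPKM in Ctrl_TTX, apart but just short of the threshold (limma adjusted p = 0.0521). The authors' deposited table marks 9 of the 69 genes in this comparison, 1 higher (Usp40) and 8 lower, or 13%, against 22.9% of all 10729 genes.

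Each library of 1 group lay beyond each library of the other for 30 members, 6 higher (against 16.1% of all genes) and 24 lower (against 19.6%). Summed neuron markers ran from 885 to 3193 FPKM in Ctrl_TTXwd and from 3036 to 3763 FPKM in Ctrl_TTX, and 4 of 7 glutamatergic markers fell (limma adjusted p below 0.05). In bulk RNA, fewer cells of a type and less RNA per cell cannot be told apart, and the part of cell makeup in the falls was not tested. The count of 9 became 4 without Ctrl_TTXwd replicate 1 and 14 without Ctrl_TTX replicate 1, and it was 12, all lower, without both libraries that stand apart (against 15.1% of all genes). A fit to the 6 control libraries alone called 0 of the 69 and 1 of all genes. After quantile normalization 2 were higher and 8 lower, and after rescaling by median ratios, or after correction for locus span, 1 was higher and 8 lower. Counts given without the share of all genes do not show a shift particular to the members.

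Withdrawal was also compared within knockdown neurons, KD_TTXwd against KD_TTX. Here 3 genes rose, Ube2b, Ube2q2l and Usp40, and 3 fell, among them Ube2j1 and Ube2v1 (limma, adjusted p below 0.05). That is 8.7% of the 69, against 14.2% of all genes tested (4.95% higher and 9.22% lower). The median log2 difference was 0.01, against 0.00073 over all genes. At an unadjusted p below 0.05 there were 9 higher and 10 lower, against 31.2% of all genes (1439 higher and 1895 lower of 10689).

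Ube2b (chromosome 10, 37213056 to 37227635), one of the mammalian Rad6 enzymes that ubiquitylate histone H2B, had 145, 146 and 125 FPKM in KD_TTXwd and 85.7, 86.8 and 83.6 FPKM in KD_TTX. All 3 libraries after withdrawal were above all 3 in TTX, with means of 139 ± 12.0 FPKM in KD_TTXwd and 85.4 ± 1.62 FPKM in KD_TTX (SD) and a log2 difference of 0.69 ± 0.16 (limma adjusted p = 0.0186). Its paralog Ube2a had 53.0, 48.6 and 48.5 FPKM in KD_TTXwd and 38.3, 38.0 and 43.6 FPKM in KD_TTX, which did not pass (limma adjusted p = 0.183). In control neurons Ube2b had 90.7, 108 and 92.1 FPKM in Ctrl_TTXwd and 101, 70.2 and 73.7 FPKM in Ctrl_TTX, with overlapping groups.

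Ube2j1 (chromosome 5, 52858635 to 52875428), an E2 anchored in the endoplasmic reticulum membrane that serves the degradation of misfolded proteins there, had 33.7, 26.9 and 29.5 FPKM in KD_TTXwd and 42.5, 47.5 and 42.7 FPKM in KD_TTX. The groups did not overlap, and the log2 difference was -0.55 ± 0.13 (limma adjusted p = 0.0198). In control neurons it had 47.6, 50.8 and 54.1 FPKM in Ctrl_TTXwd and 59.6, 62.5 and 59.7 FPKM in Ctrl_TTX, also without overlap, at a log2 difference of -0.25 ± 0.13 that did not pass (limma adjusted p = 0.197). The other E2s of that compartment, Ube2j2 and Ube2g2, differed by -0.41 ± 0.17 and -0.55 ± 0.38 on the log2 scale with knockdown, and neither passed.

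Ube2v1 (chromosome 3, 170494657 to 170517510), the catalytically inactive partner with which Ube2n builds K63-linked chains, had 2.25, 3.00 and 2.74 FPKM in KD_TTXwd and 5.83, 3.91 and 4.56 FPKM in KD_TTX (log2 difference -0.65 ± 0.18, limma adjusted p = 0.0385). Its groups were apart. Ube2n, at 168, 146 and 131 FPKM in KD_TTXwd and 79.1, 93.4 and 126 FPKM in KD_TTX, was above 0 in its difference without passing (log2 difference 0.59 ± 0.19, limma adjusted p = 0.0583).

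Usp40 (chromosome 9, 94791219 to 94862200) had 7.89, 5.96 and 9.28 FPKM in KD_TTXwd and 3.89, 4.07 and 3.54 FPKM in KD_TTX, without overlap (log2 difference 0.83 ± 0.24, limma adjusted p = 0.0404). In control neurons the difference was 0.64 ± 0.24 (limma adjusted p = 0.0837), with 10.1 FPKM in Ctrl_TTXwd replicate 3 against 5.36 and 4.88 FPKM in replicates 1 and 2. Ube2q2l (chromosome X, 11568532 to 11570054), a weakly expressed relative of Ube2q2 with a listed locus of 1.523 kb, had 3.82, 4.62 and 3.95 FPKM in KD_TTXwd and 2.26, 2.02 and 2.85 FPKM in KD_TTX. It too was apart between groups, at a log2 difference of 0.61 ± 0.16 (limma adjusted p = 0.0318).

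**Figure D3:**
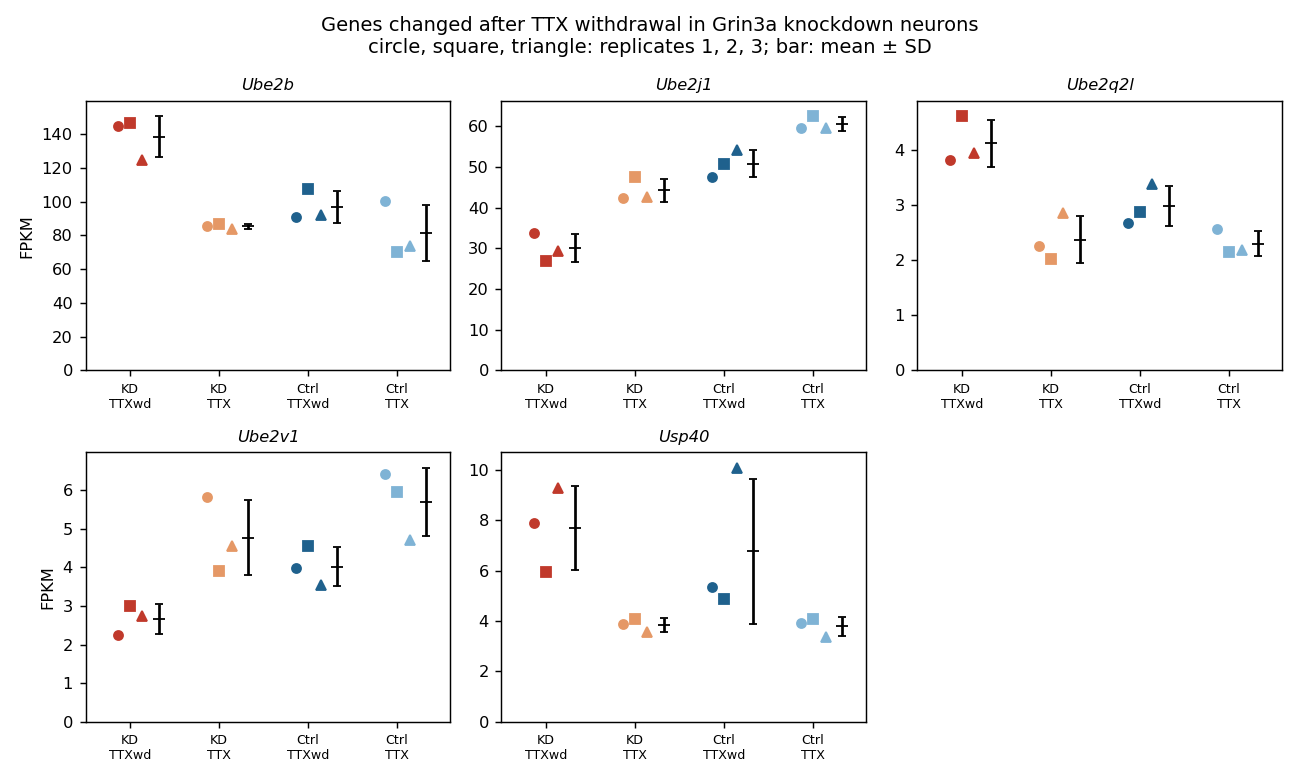
FPKM of 5 of the 6 genes called after withdrawal in knockdown neurons, in the 3 libraries of each group (symbols are replicates 1, 2 and 3) with the mean ± SD beside them. KD_TTXwd points are above KD_TTX points for Ube2b, Ube2q2l and Usp40 and below them for Ube2j1 and Ube2v1.

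Several genes with wider spread were called in the authors' deposited table only. It marks 8 of the 69 in this comparison (11.6%, against 19% of all genes), 2 higher (Ube2b and Usp40) and 6 lower (among them Ube2m, Ube2ql1, Ube2s, Usp22 and Usp5). Usp5, which disassembles free ubiquitin chains, had 8.62, 11.6 and 10.8 FPKM in KD_TTXwd and 16.0, 25.3 and 37.0 FPKM in KD_TTX (limma adjusted p = 0.0683). Ube2m, an E2 of NEDD8, had 44.8, 59.5 and 52.3 FPKM in KD_TTXwd and 71.8, 83.8 and 104 FPKM in KD_TTX (limma adjusted p = 0.0847). Usp22 had 256, 294 and 203 FPKM in KD_TTXwd and 439.6, 425 and 339 FPKM in KD_TTX (limma adjusted p = 0.220). In all 3 the groups were apart while the limma test was not passed.

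Libraries of the groups did not overlap for 12 members that were higher (against 20.2% of all genes) and 19 that were lower (against 23.8%). Summed glutamatergic markers ran from 309 to 434 FPKM in KD_TTXwd and from 517 to 643 FPKM in KD_TTX, with 1 of 7 called lower by limma. Summed levels of the 4 vascular and fibroblast markers measured, of 7 listed, ran from 38.9 to 48.1 FPKM in KD_TTXwd and from 19.3 to 22.1 FPKM in KD_TTX, with 1 called higher. These 4 did not move together: 2 had log2 differences above 0 and 2 below 0 (-0.88 to 1.74, median -0.09). Their sum therefore does not show a shift of the whole list. The groups were apart in both sums, and their part in the calls was not tested. The count of 6 changed with the libraries used: it was 1, 0 and 2 without KD_TTXwd replicate 1, 2 or 3, 2 and 0 without KD_TTX replicate 1 or 2, and 13 without Ctrl_TTX replicate 1, which enters only through the shared spread. Without both libraries that stand apart it was 24 (9 higher and 15 lower), against 33.1% of all genes. Rescaling by median ratios gave 5 higher and 3 lower, and quantile normalization 6 higher and 2 lower. Where the share of all genes is not given beside a count, a shift particular to the members cannot be read from it.

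No gene was called in both withdrawal comparisons, among 15 called in either, whereas 774 of the 2636 genes called in either over the whole table were called in both. This is no test of a difference. The log2 difference had the same sign in both for 41 of the 69 genes (27 lower and 14 higher), while 23 were above 0 with knockdown and below 0 in control, and 5 the reverse. Of all 10689 genes, 7422 had the same sign, 1682 were above 0 with knockdown and below 0 in control, and 1585 the reverse. Over the 69 genes the 2 sets of differences, which share no library, correlated at Pearson's r = 0.515 and Spearman's rho = 0.461, against 0.650 and 0.586 over all 10689 genes.

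**Figure D4:**
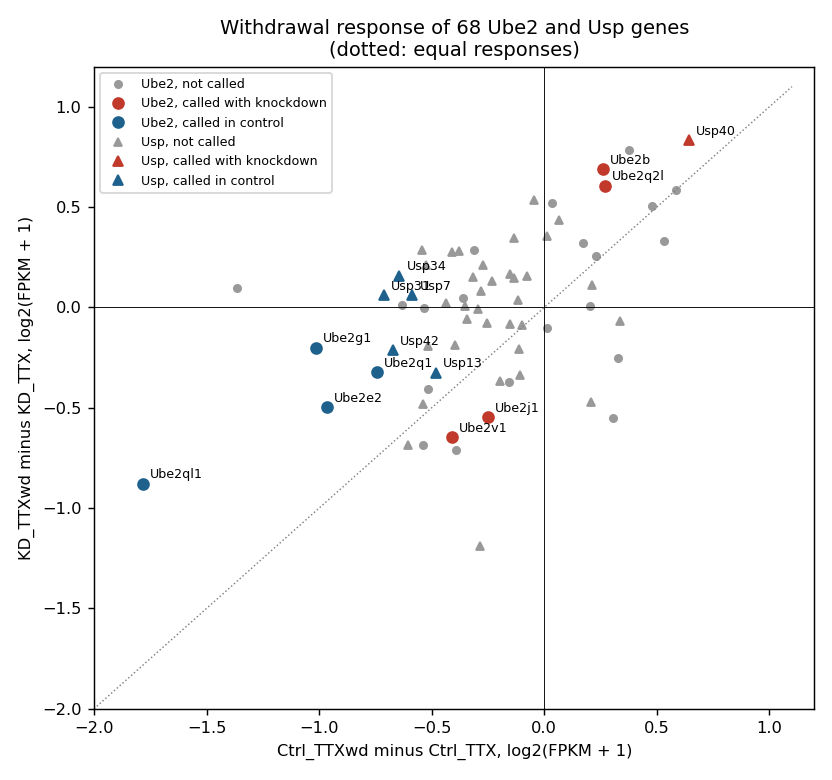
Log2 difference after withdrawal with knockdown (vertical) against that in control (horizontal) for 68 of the 69 genes, circles for Ube2 and triangles for Usp genes, coloured by the comparison in which limma called them. The genes called in control lie above the dotted line of equal responses, and Ube2ql1 is the leftmost. Those genes were picked for their fall in control, which favours a place above the line, so this is no test of a difference.

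The difference between the withdrawal responses themselves, that is the response with knockdown minus the response in control, passed for 0 of 69 members by limma, and for 0% of all genes tested. At an unadjusted p below 0.05 there were 10 members, all above 0, against 9.82% of all genes (584 above 0 and 466 below 0 of 10689). The median over the 69 genes was 0.28, against -0.0036 over all genes. Of the 69, 50 were above 0, against 5312 of all 10689. The 5 with the smallest p were Usp34, Usp31, Usp47, Usp7 and Ube2g1. For Usp34 the difference was 0.80 ± 0.22 on the log2 scale (limma adjusted p = 0.492), with a response of 0.16 with knockdown and -0.64 in control. For Usp31 the responses were 0.06 with knockdown and -0.71 in control, and for Usp7 they were 0.06 with knockdown and -0.59 in control, neither difference passing (limma adjusted p = 0.492 and 0.492).

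Usp47, an enzyme linked to base excision repair, had 77.1, 75.1 and 68.4 FPKM in KD_TTXwd against 55.2, 58.7 and 68.5 FPKM in KD_TTX, and 46.4, 53.6 and 56.3 FPKM in Ctrl_TTXwd against 80.3, 61.9 and 67.0 FPKM in Ctrl_TTX. Its control libraries were all lower after withdrawal, its knockdown libraries overlapped, and the difference between responses was 0.68 ± 0.21 (limma adjusted p = 0.492). Usp15, known for acting on SMAD signalling and against Parkin-driven mitophagy, was the 1 member whose libraries were apart in opposite directions. It had 34.4, 28.6 and 28.1 FPKM in KD_TTXwd against 25.02, 26.3 and 26.6 FPKM in KD_TTX, and 23.5, 28.2 and 30.0 FPKM in Ctrl_TTXwd against 57.0, 31.6 and 34.0 FPKM in Ctrl_TTX. That difference between responses was 0.74 ± 0.29 (limma adjusted p = 0.492), and it was chosen here after its values were seen. How many of all genes were apart in opposite directions was not computed.

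Genes with long loci lay higher in this difference. Split at the median locus span of 37.6 kb (23.8 kb over all genes), 33 of the 35 longer members were above 0 (median 0.41 on the log2 scale), and 17 of the 34 shorter ones (median -0.04). The same split over all genes was not computed. The rank correlation of the difference with locus span was 0.505 over the 69 genes and 0.381 over all 10689, and genes of one table are not independent replicates. Other contrasts had such a correlation too. For withdrawal it was -0.231 (all genes -0.214) in control and 0.223 (0.101) with knockdown. For knockdown it was -0.402 (-0.318) in TTX and 0.403 (0.287) after withdrawal. After correction of each library for a trend with locus span, the median of the 69 was 0.17 in place of 0.28, and 45 were above 0. The same correction gave a median of -0.18 in place of -0.27 for withdrawal in control, with 21 above 0 in place of 19. For knockdown in TTX it gave -0.09 in place of -0.16, with 18 above 0 in place of 19.

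Knockdown in TTX, KD_TTX against Ctrl_TTX, passed for 0 of the 69 genes by limma, and for 0% of all genes tested (smallest limma adjusted p = 0.936). Grin3a itself was thus not called, although its groups did not overlap and its KD_TTX mean was 33.6% of that in Ctrl_TTX. A missing call in this comparison therefore does not show that a gene was unchanged. At an unadjusted p below 0.05 there were 7 members, all lower, against 3.85% of all genes (117 higher and 295 lower of 10689). Differences were below 0 for 50 of 69, against 5494 of all 10689. Every KD_TTX library lay below every Ctrl_TTX library for 14 members (against 7.91% of all genes), and above for 1 (against 3.94%). Over these members Ctrl_TTX replicate 1 is often the highest library, as given above. Summed neuron markers ran from 2339 to 2711 FPKM in KD_TTX and from 3036 to 3763 FPKM in Ctrl_TTX, and glutamatergic markers from 517 to 643 FPKM in KD_TTX and from 754 to 791 FPKM in Ctrl_TTX. Neither pair of ranges overlapped, all 7 neuron and 5 of 7 glutamatergic markers had differences below 0, 0 of them passed by limma, and their part in the pattern was not tested. The authors' deposited table marks 3 of the 69, all lower (4.35%, against 2.16% of all genes, 0.336% higher and 1.83% lower): Ube2d1, Ube2l3 and Usp15.

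The smallest p belonged to Ube2j1, with 42.5, 47.5 and 42.7 FPKM in KD_TTX and 59.6, 62.5 and 59.7 FPKM in Ctrl_TTX. The groups were well apart and narrow, and the log2 difference was -0.45 (95% interval -0.73 to -0.16; limma adjusted p = 0.936). Ube2l3, the E2 that serves ligases such as Parkin and the linear chain assembly complex, had 97.5, 70.1 and 71.1 FPKM in KD_TTX and 169, 98.3 and 109 FPKM in Ctrl_TTX. Its groups were apart by a small margin, with a log2 difference of -0.63 (95% interval -1.10 to -0.15; limma adjusted p = 0.936). Usp39, a spliceosome protein that lacks deubiquitinase activity, had 16.8, 17.8 and 20.9 FPKM in KD_TTX and 29.0, 24.8 and 27.1 FPKM in Ctrl_TTX (log2 difference -0.52, limma adjusted p = 0.936). For Usp39, Usp15 and Ube2g1, the others among the 5 smallest p, all KD_TTX libraries were below all Ctrl_TTX libraries. Ube2d1 had 93.5, 73.2 and 77.1 FPKM in KD_TTX, against 430.2 FPKM in Ctrl_TTX replicate 1 and 90.7 and 95.3 FPKM in replicates 2 and 3, where the authors' deposited table gives a log2 fold change of -1.34.

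Knockdown after withdrawal, KD_TTXwd against Ctrl_TTXwd, likewise passed for 0 of the 69 genes by limma, against 0.00936% of all genes tested (1 gene). At an unadjusted p below 0.05 there were 12 members, 9 higher and 3 lower, against 11.9% of all genes (625 higher and 651 lower of 10689). Groups were apart for 10 members that were higher (against 10.8% of all genes) and 3 that were lower (against 9.03%). The authors' deposited table marks 2 of the 69, both lower (2.9%, against 7.59% of all genes, 1.61% higher and 5.97% lower): Ube2j1 and Ube2l3.

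Ube2j1 had 33.7, 26.9 and 29.5 FPKM in KD_TTXwd and 47.6, 50.8 and 54.1 FPKM in Ctrl_TTXwd. No library overlapped, the mean with knockdown was 59.1% of that in control, and the log2 difference was -0.74 (95% interval -1.03 to -0.46; limma adjusted p = 0.209). Ube2l3 had 68.8, 55.7 and 57.6 FPKM in KD_TTXwd and 98.6, 109 and 122 FPKM in Ctrl_TTXwd. It was apart too, with a mean at 55.3% of that in control and a log2 difference of -0.84 (95% interval -1.32 to -0.37; limma adjusted p = 0.263). The authors' deposited table gives log2 fold changes of -0.76 (q = 0.0249) and -0.85 (q = 0.00447). These were the only 2 members whose libraries were apart and lower with knockdown in both states. The share of all genes with that pattern was not computed.

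Among genes that were higher, Usp47 differed by 0.49 on the log2 scale (limma adjusted p = 0.302), Usp31 by 0.55 (0.302) and Ube2b by 0.51 (0.302). Ube2b had 145, 146 and 125 FPKM in KD_TTXwd against 90.7, 108 and 92.1 FPKM in Ctrl_TTXwd, with no overlap. Usp31 had 10.5, 9.75 and 8.85 FPKM in KD_TTXwd against 6.04, 6.60 and 6.22 FPKM in Ctrl_TTXwd, also apart. Without both libraries that stand apart, 4 members passed by limma against 4.94% of all genes: Ube2j1 (log2 -0.70, adjusted p = 0.0305), Ube2l3 (-0.77, 0.0419) and Usp20 (-0.79, 0.0411) lower, and Usp47 (0.55, 0.0494) higher. Summed microglia markers ran from 35.4 to 453 FPKM in KD_TTXwd and from 85.7 to 1517 FPKM in Ctrl_TTXwd, and astrocyte markers from 760 to 1542 FPKM in KD_TTXwd and from 1341 to 2646 FPKM in Ctrl_TTXwd. Their part in these differences was not tested.

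Usp34, Usp42, Usp7 and Usp9x were apart and lower with knockdown in TTX, and apart and higher with knockdown after withdrawal, in 2 comparisons that share no library. Of all genes, 7.91% were apart and lower in the first and 10.8% apart and higher in the second. The share with both was not computed, so this count has no background. Some margins were narrow, with 65.7 against 65.4 FPKM for Usp7 after withdrawal (lowest KD_TTXwd, highest Ctrl_TTXwd) and 79.2 against 79.1 FPKM for Usp9x. In TTX the margin of Usp42 was narrow too, at 16.58 against 16.65 FPKM (highest KD_TTX, lowest Ctrl_TTX). Usp9x, which protects endocytic and synaptic proteins from degradation, had 111, 92.5 and 79.2 FPKM in KD_TTXwd against 66.8, 79.1 and 74.1 FPKM in Ctrl_TTXwd, and 71.6, 80.3 and 77.6 FPKM in KD_TTX against 117, 84.1 and 88.5 FPKM in Ctrl_TTX. The corresponding difference between responses was 0.66 ± 0.24 (limma adjusted p = 0.492), and it passed for none of the 4.

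**Figure D5:**
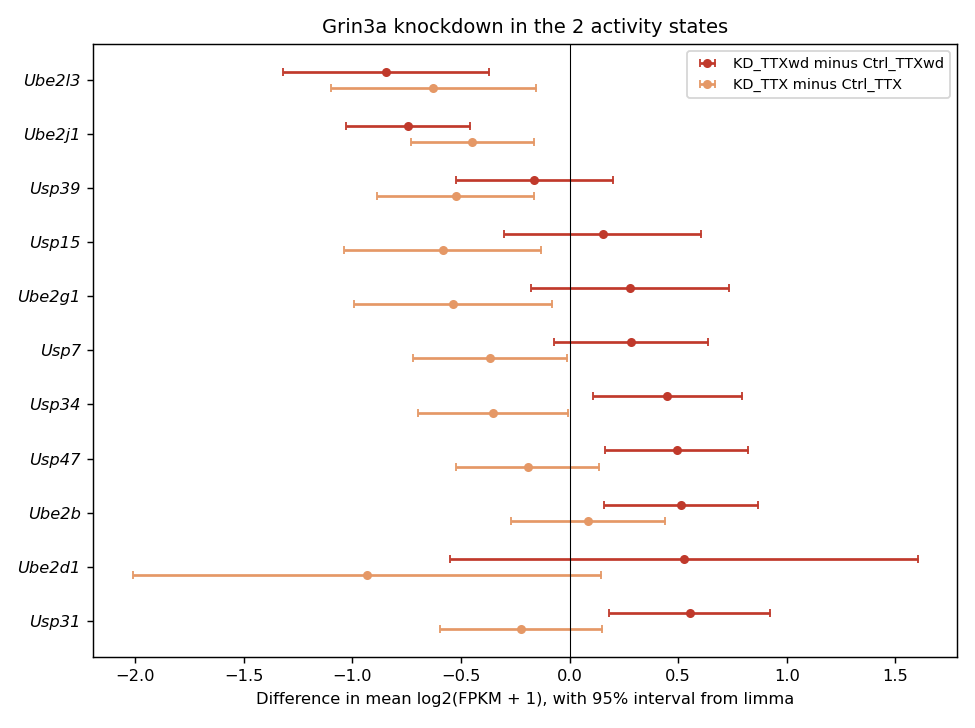
Difference in mean log2(FPKM + 1) between knockdown and control, after withdrawal (KD_TTXwd minus Ctrl_TTXwd, dark) and in TTX (KD_TTX minus Ctrl_TTX, light), with 95% intervals from limma that are not adjusted for the number of genes. Intervals of Ube2l3 and Ube2j1 lie below 0 in both states, those of Usp34 lie on opposite sides, and those of Ube2d1 are the widest. A gene has the same interval width in both states, because its spread is estimated over all groups together.

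None of the members described next, picked for their roles at receptors, in cell division, in DNA repair and at mitochondria, passed in any contrast by limma. Usp46 and Usp12, relatives known for removing ubiquitin from AMPA receptor subunits, had 26.0, 30.4 and 33.2 FPKM and 2.24, 3.15 and 3.56 FPKM in Ctrl_TTXwd, against 43.2, 33.2 and 35.7 FPKM and 5.72, 4.72 and 3.64 FPKM in Ctrl_TTX. Both pairs were apart but did not pass (limma adjusted p = 0.211 and 0.151). Usp8, which acts on cargo at endosomes, differed by -0.15 ± 0.29 in control and Usp33, which recycles adrenergic receptors, by -0.23 ± 0.16. Ube2c, which starts chains for the anaphase-promoting complex, had 12.2, 13.4 and 10.2 FPKM in Ctrl_TTXwd and 6.28, 8.65 and 9.01 FPKM in Ctrl_TTX (limma adjusted p = 0.247). Ube2t of the Fanconi anaemia pathway differed by 0.01 ± 0.22, Usp1, its opposing deubiquitinase, by -0.13 ± 0.20, and Usp30 of the outer mitochondrial membrane by -0.20 ± 0.16. By class, the 7 chain-building E2s had 1 call in each withdrawal comparison, the 7 receptor and endosome USPs none, and the 12 chromatin and DNA damage USPs 1 in control and none with knockdown. Over all genes, 17.7% were called in control and 14.2% with knockdown, so 1 call among 7 genes (14.3%) is near that background.

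The rest of the pathway was read from lists of partners. Of 7 E1 genes tested, 0 passed in either withdrawal comparison (limma; at an unadjusted p below 0.05, 1 in control and 0 with knockdown). Of 35 neuronal ubiquitin ligases tested, 1 rose and 9 fell in control, among them Trim67 (log2 -1.85), Nedd4l (-1.22) and Fzr1 (-1.09), an activator of the anaphase-promoting complex. That is 28.6% of the list, against 17.7% of all genes. With knockdown 0 rose and 6 fell (17.1%, against 14.2% of all genes), with Fbxo2 (-2.45), Trim67 (-2.21), Fzr1 (-1.79) and Trim3 (-1.12) having the largest differences. Of 26 deubiquitinases of other families, Otud4 (-0.83) and Otud6b (-0.87) fell in control (7.69%, against 17.7% of all genes) and Otub1 (-0.59) fell with knockdown (3.85%, against 14.2%). Isg15, a ubiquitin-like modifier, rose in control to 6.27 ± 0.513 FPKM (SD) in Ctrl_TTXwd, against 2.16 ± 0.967 FPKM in Ctrl_TTX, while Ube2l6, an E2 of Isg15, had 10.3, 4.88 and 12.3 FPKM in Ctrl_TTXwd and 6.52, 8.27 and 5.41 FPKM in Ctrl_TTX with overlapping groups. Ufc1, the E2 of UFM1, rose in control by 0.80 ± 0.22 on the log2 scale (limma adjusted p = 0.0281).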

How the data were processed

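The submitters' processing notes name genome build rn5 and the tools Trimmomatic, TopHat2, Cufflinks and Cuffdiff; versions and roles are not given in the sources used here. Library and group levels are the authors' FPKM, per the file headers, which do not state any scaling between libraries. Fold changes were deposited by the authors as log2 ratios, and their p-value and q-value are deposited beside them; genes with a q-value below 0.05 are marked as significant. The authors' test statistic, a score, is deposited too and was not used. The table has 10730 rows, of which 18 carry symbols turned into dates, and 1 row, whose library mean was over 1% away from the group value in the same table, was left out. The deposited lists of significant genes (232, 2458 and 814 rows) were all found in the table of all genes and were not used separately. The number of reads is unknown, so no counting error is given.

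The 10689 genes with at least 1 FPKM in at least 3 of 12 libraries were tested with limma 3.58.1 under R 4.3.3 (eBayes with an intensity trend) on log2(FPKM + 1). The model had 1 coefficient per group, 8 residual degrees of freedom and 5 contrasts. Each test was two-sided, p was adjusted over all genes tested by the Benjamini-Hochberg method, and the threshold was 0.05. Log2 differences are on the log2(FPKM + 1) scale and understate changes of low genes. The code was tested on simulated data. Coordinates are those of the deposited table, and promoters were matched in RefSeq (GRCr8), 68 genes by symbol and 1, listed as Ube2d4, by an accession that RefSeq names Ube2d2b. Python 3.11.15 with matplotlib 3.10.9 drew the figures.

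The members, gene lists and tests were chosen with earlier results of these data known. Named members were those past the threshold, the 6 with the highest mean level, those the authors call in a knockdown comparison, the 5 with the smallest p where a contrast had no call, and members taken for their role. Partners named were up to 4 called genes of each list and contrast. Same-numbered libraries in TTX deviated together over genes (correlations of 0.617, 0.436 and 0.667 between KD_TTX and Ctrl_TTX). Between KD_TTXwd and Ctrl_TTXwd the correlations were -0.331, 0.875 and 0.563 for replicates 1, 2 and 3. Between the activity states they were -0.301, 0.067 and -0.497 in control, and 0.314, -0.179 and -0.448 with knockdown. A further member enters the fits and counts but is not reported here by name, and it was left out of the figures.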

Additional observations from a re-analysis of the deposited data

How the results depend on the processing

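Counts of the 69 genes called by limma were 9 for withdrawal in control, 6 for withdrawal with knockdown and 0 for the other 3 contrasts. With the replicate number as a block the counts were again 9, 6, 0, 0 and 0, so the pairing changed none of them. A minimum mean of 5 FPKM, under which 63 of the 69 were tested, gave 3 for withdrawal with knockdown. Fits to only the 6 libraries compared gave 0 in control and 13 with knockdown. Leaving out 1 library, or 1 replicate number in all groups, gave 0 to 14 in control and 0 to 13 with knockdown. Without both libraries that stand apart, a setting chosen after seeing the data, withdrawal with knockdown gave 24 and knockdown after withdrawal 4. The share of all genes called moved as well, from 14.2% to 33.1% for withdrawal with knockdown when both libraries were left out. Shifts in the member counts therefore need not be particular to the members. The causes of these shifts were not tested. Over 30 results of named genes under all alternatives, 0 were reversed, 103 lost their call, 3 gained one and 636 did neither. Only the 9 and 6 results called in the main fit could lose a call. The others, the smallest p of contrasts with no call, count among the 636 by staying uncalled. The share of calls lost is therefore larger than the pooled counts show. Under quantile normalization the median of all genes shifted to 0.08 for withdrawal with knockdown; other shifts were smaller. Limits are the unknown read depth, 3 libraries per group, 1 hairpin, and an unknown number of separate cultures.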
